A study of Mus musculus with 11 samples.

Results

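The phospholipase C beta genes Plcb1, Plcb2, Plcb3 and Plcb4 and the protein kinase C genes Prkca, Prkcb, Prkcd, Prkce, Prkch and Prkcq were followed across the tumours of a mouse melanoma model. They are the rows of the count table that carry these 10 symbols, out of 18756 mouse genes, and all 10 passed the filter on low counts. RNA sequencing covered 11 end-point skin tumours of C57BL/6 mice, with 2 libraries labelled GNA11 Q209L, 5 labelled GNA11 Q209L Bap1 KO and 4 labelled BRAF V600E Bap1 KO. The Bap1 knockout label is therefore shared by the tumours of both oncogenes, and the GNA11 Q209L label by tumours with and without it. GNA11 Q209L is an activating change of the G protein subunit alpha 11, BRAF V600E an activating change of a kinase of the MAPK pathway, and Bap1 a nuclear deubiquitinase. The libraries of a genotype are numbered here in the order of the records, and a number pairs nothing across genotypes. The sources used here do not give age, sex, induction scheme or the promoter that drives the recombinase.

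Active Gq and G11 proteins bind phospholipase C beta enzymes, which split the membrane lipid phosphatidylinositol bisphosphate into inositol trisphosphate (IP3) and diacylglycerol. IP3 releases calcium from internal stores, and diacylglycerol recruits protein kinase C to the membrane. The conventional kinases, encoded here by Prkca and Prkcb, need calcium as well as diacylglycerol, whereas those encoded by Prkcd, Prkce, Prkch and Prkcq need diacylglycerol alone. In uveal melanoma, where GNAQ and GNA11 are the usual oncogenes, recurrent activating changes also occur in PLCB4, and protein kinase C passes the signal on to RasGRP3 and the MAPK pathway.

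Total counts per library lay between 18338082 and 81035135. The human GNA11 transgene had 22.95 and 125.2 CPM (the count scaled to a common effective library size) in the GNA11 Q209L libraries and 6.515 to 17.37 in the GNA11 Q209L Bap1 KO libraries. In the BRAF V600E Bap1 KO libraries it had at most 0.05619. Counts of the whole Bap1 gene stood at 85.1 and 137 CPM in GNA11 Q209L, at 102 to 170 CPM under GNA11 Q209L Bap1 KO and at 54.7 to 71.3 CPM with BRAF V600E, so the gene-level count did not show the labelled knockout under GNA11. For 2 BRAF V600E Bap1 KO libraries, replicates 2 and 4, the Bap1 line at the foot of the deposited table reads NA, while the line at its top gives the knockout allele. The fit was repeated without them, and its values are given where a call between the oncogenes was lost or the fold of a called gene moved by over 1.5 times. The 9 melanocyte markers summed to 67351 to 100878 CPM in the GNA11 libraries and to 50.7 to 655 CPM in the BRAF V600E Bap1 KO libraries, so the marker genes of the melanocyte lineage were nearly absent from the latter. A salivary gland list summed to 133997 CPM in BRAF V600E Bap1 KO replicate 4, over the 3 of 5 markers found, and to at most 34.9 CPM in every other library. Its skeletal muscle markers, 6 of 6 found, summed to 5058 CPM. Xist was high in both GNA11 Q209L libraries, at 358 and 198 CPM, and in 1 GNA11 Q209L Bap1 KO library, so sex and the Bap1 label overlap in that comparison.

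Within the phospholipase C beta family, the GNA11 Q209L Bap1 KO tumours were marked by a high level of Plcb4. Among the kinases, Prkce was higher with GNA11 Q209L than with BRAF V600E under the Bap1 KO label, and Prkcb and Prkch were lower, as was Plcb1. Between the GNA11 genotypes no member passed the test, where 0.0288% of all genes did. The smaller group there holds 2 libraries that differ widely from each other. Between the oncogenes 5 of the 10 members passed, a share near the 41.2% of all genes that did. Of these 5, Prkce and Plcb1 passed under every alternative that was run. The calls of Plcb4, Prkcb and Prkch were lost under at least 1 alternative each.

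Plcb4 (ENSMUSG00000039943) encodes a phospholipase C beta best known from the retina and the cerebellum. RefSeq places 2 starts for it on mouse chromosome 2 (build GRCm38.p6), and these are shown because Plcb4 had the widest difference between GNA11 tumours with and without the Bap1 label among the members. The 100 bases before each start read as follows, 5′ to 3′ on the plus strand, with every CG dinucleotide in capitals.
Plcb4 start 1, chr2:135659447-135659546: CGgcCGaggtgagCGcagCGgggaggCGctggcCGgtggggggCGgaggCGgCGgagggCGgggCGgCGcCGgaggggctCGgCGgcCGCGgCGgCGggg
Plcb4 start 2, chr2:135764738-135764837: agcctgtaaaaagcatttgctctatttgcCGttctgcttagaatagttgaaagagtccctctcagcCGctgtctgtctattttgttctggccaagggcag
The stretch before the first start held 19 CG dinucleotides and 89% G and C, and the stretch before the other held 2 and 46%. Over the whole window of 300 bases (from 250 before to 50 after a start), the first start had 84% G and C, a share reached by 0.204% of the 32851 RefSeq windows of that length. The median window had 52.7%. Counts were made per gene, so the level of Plcb4 cannot be divided between these starts.

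RefSeq windows were found for 8 of the 10 members, 10 windows in all. They were searched on both strands for the E-box words CACGTG and CATGTG, which the melanocyte factor MITF can bind, and for TGACTCA, the word of the TPA response element bound by AP-1 factors downstream of protein kinase C. The words do not overlap each other, and 3 of the 10 windows held 1 match each. The matches upstream of Plcb3 and Prkcd, which were among the members with the highest levels per length, are shown with the word in capitals, 5′ to 3′ on the minus strand that carries both genes.
Plcb3, chr19:6969941-6969987: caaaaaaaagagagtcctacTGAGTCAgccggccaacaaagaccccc
Prkcd, chr14:30626289-30626334: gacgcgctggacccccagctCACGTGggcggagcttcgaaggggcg
The TPA word of Plcb3 begins 153 bases before its start, in its reverse complement, and the E-box of Prkcd 106 bases before its start. The window of Plcb2 held CATGTG, 10 bases after its start. Of all windows, 5.2% held TGACTCA, 7.15% CACGTG and 14.2% CATGTG. No word was found in the windows of Plcb1, Plcb4, Prkca, Prkcb or Prkcq, and these matches say nothing of binding in the tumours.

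Plcb4 had 369, 179, 304, 346 and 76.7 CPM in GNA11 Q209L Bap1 KO replicates 1 to 5. It had 26.7 and 13.9 CPM in the 2 GNA11 Q209L libraries. The BRAF V600E Bap1 KO libraries had 4.03, 12.03, 20.8 and 98.7 CPM. All 5 GNA11 Q209L Bap1 KO libraries thus lay above both GNA11 Q209L libraries, whereas the highest BRAF V600E Bap1 KO library, replicate 4, lay above the lowest GNA11 Q209L Bap1 KO library, replicate 5.

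Against BRAF V600E Bap1 KO, Plcb4 was higher in GNA11 Q209L Bap1 KO, with 255 ± 124 CPM (mean ± SD, n = 5) against 33.9 ± 43.8 (n = 4). The log2 fold change was 2.91 ± 0.86 (SE; adjusted p = 0.0217, edgeR's quasi-likelihood test with Benjamini-Hochberg adjustment over 17350 genes). The call was lost without BRAF V600E Bap1 KO replicate 2 (2.63, adjusted p = 0.0520) or replicate 3 (2.72, adjusted p = 0.0538). Without replicate 4, the library with the salivary gland and muscle markers, the difference came to 4.37 (adjusted p = 0.00258), and without the 2 libraries that read NA for Bap1 to 4.38 (adjusted p = 0.0114).

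Against GNA11 Q209L (20.3 ± 9.04 CPM, n = 2), the log2 fold change of Plcb4 was 3.65 ± 1.21 and did not pass (adjusted p = 0.312, edgeR). DESeq2 gave 3.67 with an adjusted p of 0.00887, in a setting in which it called 439 genes where edgeR called 5. Leaving out each library in turn kept the log2 fold change between 3.30 and 4.19, and with the Xist level as a covariate it was 3.15 (adjusted p = 0.649). GNA11 Q209L Bap1 KO replicate 3, the only library of that genotype with high Xist, had 304 CPM of Plcb4. Both GNA11 Q209L libraries had high Xist, so sex and the Bap1 label cannot be fully told apart here. Fibroblast markers, 6 of 6 found, summed to 11147 and 2833 CPM in GNA11 Q209L and, with the Bap1 label, to 286 to 2189 CPM. Proliferation genes, 6 of 6 found, summed to 42.8 and 57.2 CPM in the former and to 110 to 434 CPM in the latter. Their part in the Plcb4 difference was not tested. In bulk tumour RNA, fewer cells of a type and less RNA per cell cannot be told apart, and this holds for each member.

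**Figure D1:**
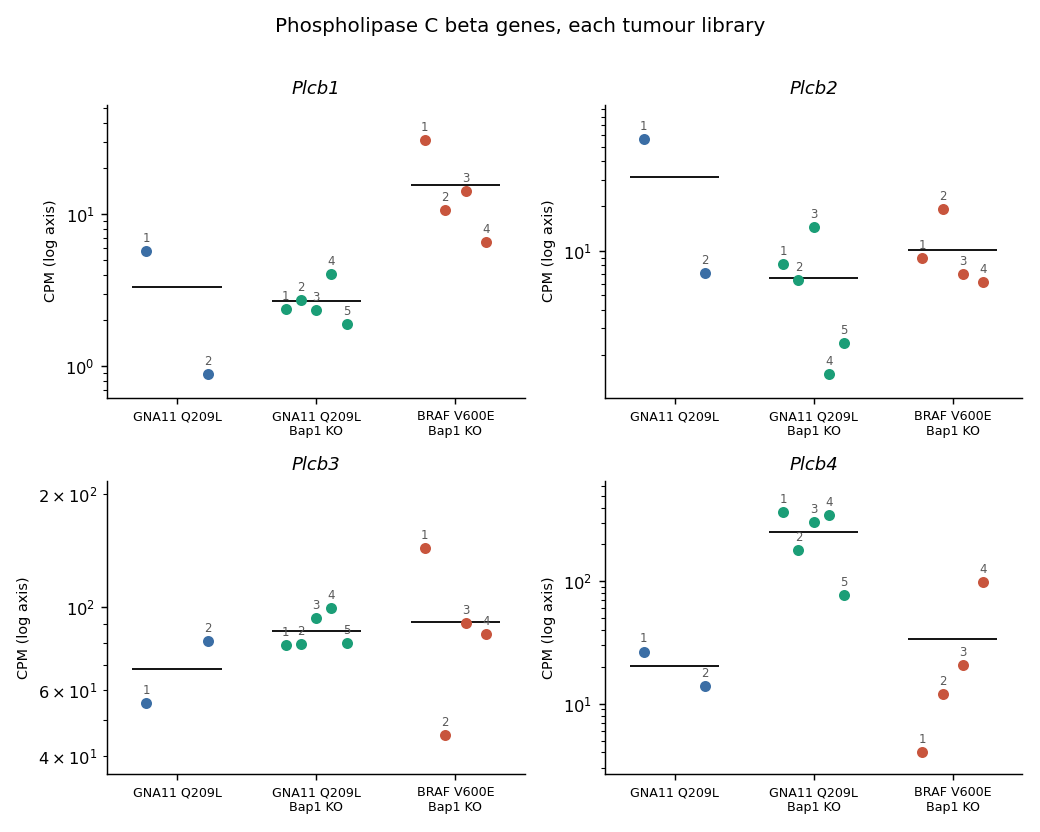
CPM on a log axis of Plcb1, Plcb2, Plcb3 and Plcb4 in each of the 11 libraries, with points numbered by replicate and a line at the mean of each genotype. For Plcb4, all 5 GNA11 Q209L Bap1 KO libraries (76.7 to 369 CPM) lie above the 2 GNA11 Q209L libraries, while Plcb3 overlaps across the genotypes.

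Plcb1 (ENSMUSG00000051177), a broadly used enzyme with high levels in brain, had the reverse order between the oncogenes. Its CPM in BRAF V600E Bap1 KO was 30.8, 10.6, 14.3 and 6.56 by replicate, and the 5 GNA11 Q209L Bap1 KO libraries had 2.39, 2.71, 2.33, 4.05 and 1.90 CPM. The GNA11 Q209L libraries had 5.76 and 0.892 CPM. Every BRAF V600E Bap1 KO library lay above every library with the GNA11 label.

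Plcb1 was lower in GNA11 Q209L Bap1 KO than in BRAF V600E Bap1 KO by edgeR's test, with a log2 fold change of -2.54 ± 0.59 (adjusted p = 0.00811). Leaving out each library in turn kept it between -2.80 and -1.97, and it passed each time. Neuron markers, 5 of 5 found, summed to 75.1, 8.79, 62.7 and 185 CPM in the 4 BRAF V600E Bap1 KO libraries and to at most 1.54 CPM in the others, with Snap25 at 0 in all GNA11 libraries. The 5 markers did not all go the same way. Against BRAF V600E Bap1 KO, 4 were lower in GNA11 Q209L Bap1 KO and 1 was not called (log2 fold change 1.41, edgeR). In GNA11 Q209L, 3 were lower and 1 was higher (2.43). Within BRAF V600E Bap1 KO, Plcb1 was lowest in replicate 4, which had the highest neuron sum and also the salivary gland and muscle markers. The part of neurons in the Plcb1 difference was not tested. Against GNA11 Q209L, Plcb1 in GNA11 Q209L Bap1 KO gave -0.32 ± 0.71 (adjusted p = 0.920, edgeR), and 1.58 without GNA11 Q209L replicate 1 (adjusted p = 0.947).

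Plcb2 (ENSMUSG00000040061) is the phospholipase C beta of blood cells. It had 56.2 CPM in GNA11 Q209L replicate 1 and 7.05 CPM in replicate 2. The GNA11 Q209L Bap1 KO libraries had 8.14, 6.36, 14.5, 1.48 and 2.40 CPM, and the BRAF V600E Bap1 KO libraries 8.89, 18.98, 6.96 and 6.12 CPM. GNA11 Q209L replicate 1 stood well above all the others, and the 3 genotypes overlapped. The log2 fold change between the GNA11 genotypes was -2.27 ± 0.85 (adjusted p = 0.358, edgeR), and that against BRAF V600E Bap1 KO -0.64 ± 0.73 (adjusted p = 0.498). Macrophage markers, 8 of 8 found with none at 0, summed to 6496 CPM in GNA11 Q209L replicate 1 and to 753 in replicate 2. Sums in the GNA11 Q209L Bap1 KO libraries were 204 to 1052 CPM and in the BRAF V600E Bap1 KO libraries 640 to 2258 CPM. The part of these cells in the level of Plcb2 was not tested, and without GNA11 Q209L replicate 1 the log2 fold change between the GNA11 genotypes was at its nearest to 0, at -0.10.

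Plcb3 (ENSMUSG00000024960), a widely expressed Gq target, was the even member of the family. The GNA11 Q209L Bap1 KO libraries spanned 79.3 to 99.3 CPM, those of BRAF V600E Bap1 KO 45.7 to 143 CPM, and the GNA11 Q209L libraries had 55.6 and 81.2 CPM. Its log2 fold changes were 0.33 ± 0.37 between the GNA11 genotypes (adjusted p = 0.798, edgeR) and -0.07 ± 0.29 between GNA11 Q209L Bap1 KO tumours and those of BRAF V600E Bap1 KO (adjusted p = 0.849).

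The make-up of the family followed Plcb4. Levels of different genes were compared as CPM per kb of exon, with GENCODE exon lengths of GRCm38. Summed over the 4 phospholipase C beta genes, this level was 54.01, 32.5, 49.7, 53.4 and 20.6 in GNA11 Q209L Bap1 KO replicates 1 to 5. It was 20.01 and 14.4 in GNA11 Q209L and 25.1, 11.7, 17.6 and 24.7 in BRAF V600E Bap1 KO. The sums of the first group exceed those of the others in 4 of 5 libraries, and replicate 5 lies among the BRAF V600E Bap1 KO values.

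Plcb4 gave 76.2, 61.2, 68.1, 72.2 and 41.6% of the sum in GNA11 Q209L Bap1 KO. Its share was 14.9 and 10.8% in GNA11 Q209L, and 1.79, 11.4, 13.1 and 44.6% in BRAF V600E Bap1 KO. In GNA11 Q209L Bap1 KO, Plcb4 was the top member of the family in replicates 1 to 4 and Plcb3 in replicate 5. Plcb3 was also the top member in GNA11 Q209L replicate 2 and in every BRAF V600E Bap1 KO library, and Plcb2 in GNA11 Q209L replicate 1. The ratio of Plcb4 to Plcb3 within a library, which does not depend on scaling, had a log2 value of 1.37 ± 0.88 (SD, n = 5) in GNA11 Q209L Bap1 KO. It was -1.80 ± 1.05 in GNA11 Q209L (n = 2) and -2.24 ± 2.21 in BRAF V600E Bap1 KO (n = 4).

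**Figure D2:**
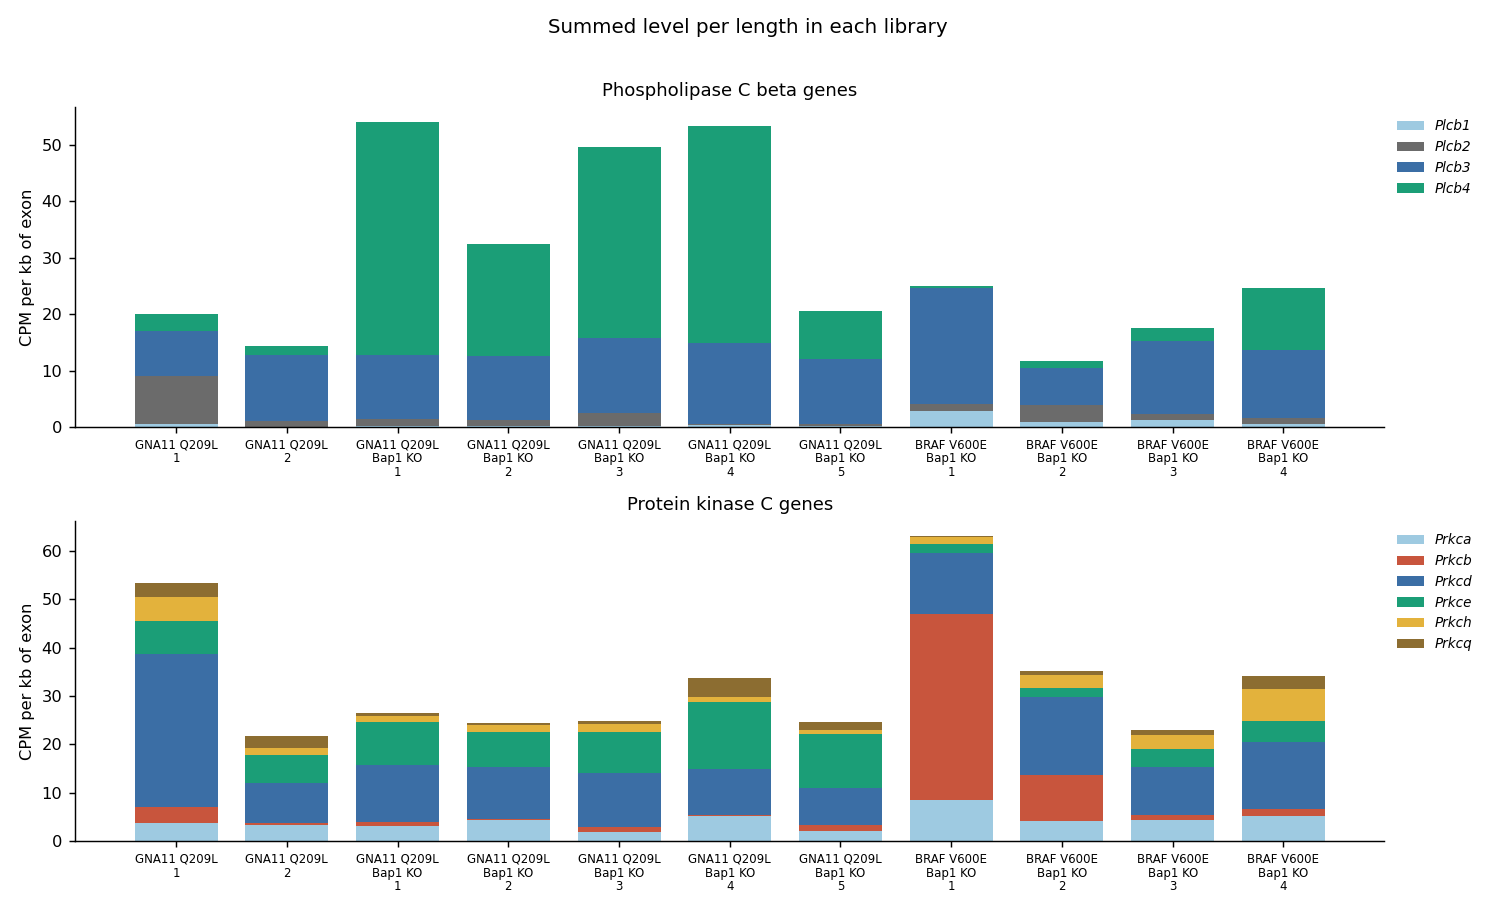
CPM per kb of exon, stacked by gene, for the 4 phospholipase C beta genes (top) and the 6 protein kinase C genes (bottom) in each library. Plcb4 makes up 41.6 to 76.2% of the phospholipase C beta sum in GNA11 Q209L Bap1 KO, and Prkcb 61.2% of the kinase sum in BRAF V600E Bap1 KO replicate 1.

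Prkce (ENSMUSG00000045038), a calcium-independent kinase, separated the oncogenes most cleanly. It had 64.7, 52.8, 60.4, 101 and 81.4 CPM in GNA11 Q209L Bap1 KO and 49.98 and 42.8 CPM in GNA11 Q209L. The BRAF V600E Bap1 KO libraries had 13.4, 12.98, 26.9 and 31.4 CPM. The 3 genotypes did not overlap, with GNA11 Q209L Bap1 KO at the top and BRAF V600E Bap1 KO at the bottom.

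Between the Bap1 KO genotypes Prkce was higher under GNA11 Q209L by 1.77 ± 0.33 on the log2 scale (adjusted p = 0.00329, edgeR), at 72.1 ± 19.3 CPM (SD, n = 5) against 21.2 ± 9.42 (n = 4). Leaving out each library in turn gave 1.59 to 2.01, with the call kept. Melanocyte markers, 9 of 9 found, differed in the same direction between these genotypes, and their part in the level of Prkce was not tested. Against GNA11 Q209L the log2 fold change was 0.64 ± 0.40 (adjusted p = 0.610, edgeR), so that the difference in level did not pass although the libraries did not overlap.

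Prkcb (ENSMUSG00000052889), the conventional kinase of B cells and other blood cells and of neurons, had the widest spread of the 6 kinases in CPM. The BRAF V600E Bap1 KO libraries had 296, 72.7, 9.05 and 10.97 CPM. The GNA11 Q209L Bap1 KO libraries had 6.08, 1.22, 8.11, 1.9995 and 8.45 CPM, and the GNA11 Q209L libraries 24.8 and 3.21 CPM. The lowest BRAF V600E Bap1 KO library was just above the highest GNA11 Q209L Bap1 KO library, and replicate 1 was far above the other 3.

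The log2 fold change of Prkcb between GNA11 Q209L Bap1 KO tumours and those of BRAF V600E Bap1 KO was -4.23 ± 1.12 (adjusted p = 0.0139, edgeR). It came to -2.58 (adjusted p = 0.0441) without BRAF V600E Bap1 KO replicate 1 and was not called by limma voom (-3.19, adjusted p = 0.0824). Without the libraries that read NA for Bap1 it was -4.93 (adjusted p = 0.0170). Mast cell markers, 5 of 5 found, summed to 302, 57.8, 69.9 and 94.04 CPM in the BRAF V600E Bap1 KO libraries and to at most 1.57 CPM elsewhere, so that replicate 1 was highest for both. Platelet markers, 5 of 5 found, summed to 142 CPM in that library and to 25.004 to 36.1 CPM in the other 3. B cell markers, 5 of 5 found, summed to 0.820 CPM there and to at most 10.97 CPM in any library. That maximum was in BRAF V600E Bap1 KO replicate 2, with 72.7 CPM of Prkcb and the lowest mast cell sum of its genotype. The same library had the highest sums of T and NK cell (67.2 CPM) and neutrophil (300 CPM) markers. The part of these cells in the level of Prkcb was not tested.

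Prkca (ENSMUSG00000050965), the other conventional kinase, was more even. The GNA11 Q209L Bap1 KO libraries spanned 16.1 to 46.99 CPM, those of BRAF V600E Bap1 KO 37.6 to 75.8 CPM, and the GNA11 Q209L libraries had 33.8 and 30.8 CPM. Between the oncogenes in the Bap1 KO tumours the log2 fold change was -0.73 ± 0.35 (adjusted p = 0.110, edgeR), and between the GNA11 genotypes -0.11 ± 0.43 (adjusted p = 0.962).

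Prkch (ENSMUSG00000021108) encodes the eta kinase of epithelia and some blood cells. It had 9.66, 10.9, 12.6, 7.95 and 5.96 CPM in GNA11 Q209L Bap1 KO and 10.8, 20.3, 22.1 and 50.9 CPM in BRAF V600E Bap1 KO. GNA11 Q209L had 37.6 and 9.99 CPM. The ranges of the Bap1 KO genotypes overlap through BRAF V600E Bap1 KO replicate 1. Prkch was lower in GNA11 Q209L Bap1 KO, with a log2 fold change of -1.47 ± 0.49 (adjusted p = 0.0347, edgeR). The call was lost without BRAF V600E Bap1 KO replicate 4, the library with the salivary gland and muscle markers (-0.93, adjusted p = 0.127), and on leaving out replicate 1, 2, 4 or 5 of GNA11 Q209L Bap1 KO (adjusted p of 0.0617, 0.0577, 0.0715 and 0.0820). It was also lost without the libraries that read NA for Bap1 (-0.80, adjusted p = 0.272), by limma voom (-1.28, adjusted p = 0.0850), and with the 2 GNA11 Q209L Bap1 KO libraries of a shared identifier summed (-1.43, adjusted p = 0.0609). Keratinocyte markers, 6 of 6 found, summed to 119, 253, 12281 and 3132 CPM in the 4 BRAF V600E Bap1 KO libraries, to 1540, 4.42, 2.92, 2.90 and 0.259 CPM in GNA11 Q209L Bap1 KO, and to 5.50 and 0.803 CPM in GNA11 Q209L, where Krt1 was at 0. Their part in the level of Prkch was not tested. The log2 fold change of Prkch between the GNA11 genotypes was -1.34 ± 0.58 (adjusted p = 0.416, edgeR), and -0.09 without GNA11 Q209L replicate 1.

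Prkcd (ENSMUSG00000021948), a calcium-independent kinase of many tissues, had the highest level per length of the 6 kinases in each genotype's mean. It had 176 CPM in GNA11 Q209L replicate 1 and 45.2 CPM in replicate 2. The GNA11 Q209L Bap1 KO libraries had 65.6, 59.4, 62.8, 52.3 and 43.2 CPM and the BRAF V600E Bap1 KO libraries 69.9, 89.2, 54.2 and 76.5 CPM. The genotypes overlapped, and GNA11 Q209L replicate 1 stood alone at the top. That library had the highest macrophage sum (6496 CPM). It also had 11147 CPM of fibroblast and 687 CPM of endothelial markers, against 2833 and 241 CPM in GNA11 Q209L replicate 2. The part of these cells in the level of Prkcd was not tested. Between the GNA11 genotypes the log2 fold change was -0.96 ± 0.40 (adjusted p = 0.407, edgeR) and turned to 0.32 without GNA11 Q209L replicate 1. Between GNA11 Q209L Bap1 KO tumours and those of BRAF V600E Bap1 KO it was -0.36 ± 0.34 (adjusted p = 0.410).

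Prkcq (ENSMUSG00000026778), the theta kinase known from T cells and skeletal muscle, was low in most libraries. The GNA11 Q209L Bap1 KO libraries spanned 3.58 to 27.8 CPM, those of BRAF V600E Bap1 KO 0.820 to 17.97 CPM, and the GNA11 Q209L libraries had 20.2 and 17.1 CPM. The highest BRAF V600E Bap1 KO value, 17.97 CPM, came from replicate 4, which also had the highest muscle marker sum. Replicate 2 of that genotype had 6.30 CPM of Prkcq and a muscle marker sum of 180 CPM. The highest value of all, 27.8 CPM, came from GNA11 Q209L Bap1 KO replicate 4, with a muscle marker sum of 3.48 CPM. T and NK cell markers, 8 of 8 found, summed to 67.2 CPM or less in every library, and in GNA11 Q209L Bap1 KO to 7.19 CPM or less. The part of either cell type was not tested. The log2 fold change was 0.36 ± 0.82 between the oncogenes in Bap1 KO tumours (adjusted p = 0.743, edgeR) and -0.85 ± 0.97 between the GNA11 genotypes (adjusted p = 0.811).

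**Figure D3:**
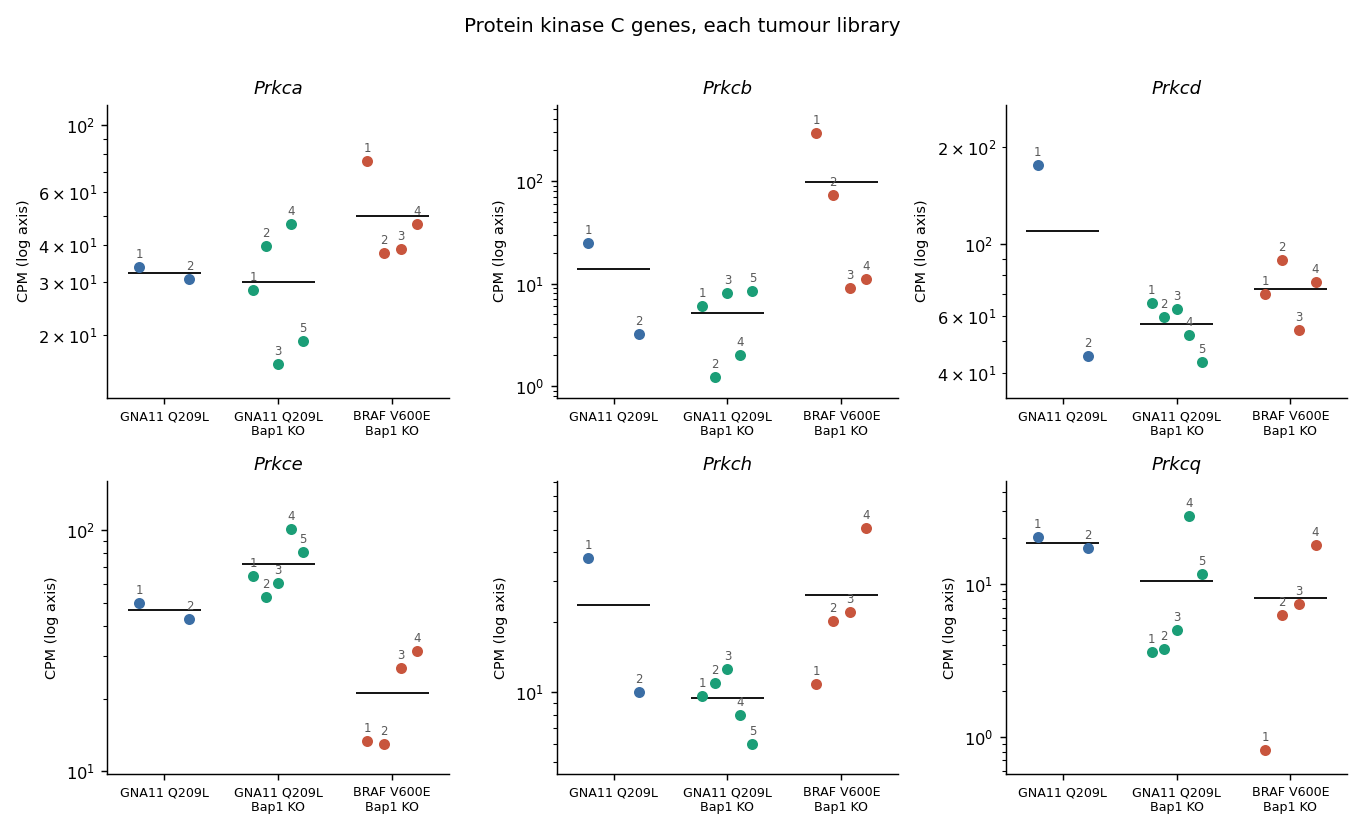
CPM on a log axis of the 6 protein kinase C genes in each library, with points numbered by replicate and a line at the mean of each genotype. Prkce separates the 3 genotypes, and Prkcb in BRAF V600E Bap1 KO runs from 9.05 to 296 CPM.

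Summed per length, the 6 kinase genes stood at 26.5, 24.5, 24.9, 33.8 and 24.7 CPM per kb in GNA11 Q209L Bap1 KO. The sum was 53.4 and 21.6 in GNA11 Q209L and 63.1, 35.2, 22.96 and 34.1 in BRAF V600E Bap1 KO. These sums overlapped, while the shares of single kinases did not in every case. Prkce gave 33.7, 29.6, 33.4, 41.2 and 45.5% of the sum in GNA11 Q209L Bap1 KO, 12.9 and 27.2% in GNA11 Q209L, and 2.92, 5.09, 16.1 and 12.7% in BRAF V600E Bap1 KO. Prkcb gave 61.2, 27.04, 5.15 and 4.21% in BRAF V600E Bap1 KO and at most 6.06% in any other library. The log2 ratio of Prkce to Prkca was 1.34 ± 0.67 in GNA11 Q209L Bap1 KO, 0.52 ± 0.06 in GNA11 Q209L and -1.29 ± 0.93 in BRAF V600E Bap1 KO (SD).

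Ordered by mean level per length, the members of GNA11 Q209L Bap1 KO began with Plcb4 (28.4 ± 13.8 CPM per kb), Plcb3 (12.4 ± 1.36), Prkcd (10.2 ± 1.63) and Prkce (9.93 ± 2.66). Neighbours among these 4 overlapped in range, and Prkce was apart from the next gene, Prkca (3.33 ± 1.46). In GNA11 Q209L the order began with Prkcd (19.9 ± 16.6) and Plcb3 (9.83 ± 2.60), which was apart from Prkce (6.39 ± 0.703), and Plcb4 was eighth. In BRAF V600E Bap1 KO it began with Prkcd (13.1 ± 2.63), Plcb3 (13.1 ± 5.73) and Prkcb (12.7 ± 17.7), and each member overlapped the next. Plcb1 was the lowest member in both GNA11 genotypes, at 0.299 ± 0.310 and 0.241 ± 0.0737 CPM per kb.

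Setting GNA11 Q209L Bap1 KO against GNA11 Q209L compares tumours with and without the Bap1 label under the same oncogene label. The human GNA11 transgene did not overlap, at 6.515 to 17.37 CPM with the Bap1 label and 22.95 and 125.2 CPM without it. Xist was high in both GNA11 Q209L libraries and, with the Bap1 label, in replicate 3 alone. The transgene sequence CreERT2 had 85.63 and 129.5 CPM without the Bap1 label and 181.3 to 325.7 CPM with it. The transgene sequence hFLPe had at most 0.04459 CPM without the label. With it, hFLPe had 36.44 to 154.3 CPM except in replicate 3 (0.0541 CPM). The Bap1 label, the levels of these transgenes and sex therefore cannot be fully told apart here. By edgeR 0 of the 10 members passed the threshold of 0.05, where 0.0288% of all genes did (5 of 17350, with 0.00576% higher and 0.0231% lower). At an unadjusted p under 0.05, 4 members lay beyond the threshold (Plcb4, Plcb2, Prkcd and Prkch), as did 1970 of all 17350 genes. Without GNA11 Q209L replicate 1 the log2 fold changes came to -0.10 for Plcb2, 0.32 for Prkcd and -0.09 for Prkch. That of Plcb4 stayed between 3.30 and 4.19 with each library left out. DESeq2 called 1 member, against 2.53% of all genes, and limma voom 0, against 0.0288%. The libraries did not overlap for 2 members, Plcb4 and Prkce, both higher with the Bap1 label, against 16.6% of all genes (7.58% higher and 9.01% lower). The median log2 fold change was -0.58 over the members and -0.00 over all genes tested. Without GNA11 Q209L replicate 1 these medians were 0.205 and 0.106.

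Setting GNA11 Q209L Bap1 KO against BRAF V600E Bap1 KO compares the oncogene labels where the Bap1 label is the same. Melanocyte markers summed to 77389 to 100878 CPM in the former and to 50.7 to 655 CPM in the latter. The transgene sequence CreERT2 had 181.3 to 325.7 CPM in the former and at most 24.66 CPM in the latter. The oncogene, the CreERT2 level and the cell make-up of the tumours differ together and cannot be told apart here. Of the 10 members 5 passed, 2 higher and 3 lower, against 41.2% of all genes (16.5% higher and 24.7% lower), so the share of members was near that of all genes. Libraries did not overlap for 3 members, with Prkce higher and Plcb1 and Prkcb lower, against 31.8% of all genes (14.7% higher and 17.2% lower). The median log2 fold change was -0.50 over the members and -0.26 over all genes. Without the 2 libraries that read NA for Bap1, 4 members passed, where the call of Prkch was lost, against 21.97% of all genes (3571 of 16254).

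In the remaining comparison, GNA11 Q209L against BRAF V600E Bap1 KO, the oncogene and the Bap1 label differ together. By edgeR 0 of the 10 members passed, against 15.2% of all genes (9.27% higher and 5.93% lower). The libraries did not overlap for 3, with Prkce higher and Plcb1 and Prkca lower, against 41.9% of all genes (19.0% higher and 22.9% lower). At an unadjusted p under 0.05 there were 2 members, Prkce and Plcb1, and 6331 of all 17350 genes. Prkce had 1.13 ± 0.39 (adjusted p = 0.0702) and Plcb1 -2.22 ± 0.83 (adjusted p = 0.0829), and DESeq2, which called 5423 genes, called both (adjusted p = 0.0305 and 0.0121). The 3 comparisons share their libraries, so their values are set side by side and were not counted as separate support.

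**Figure D4:**
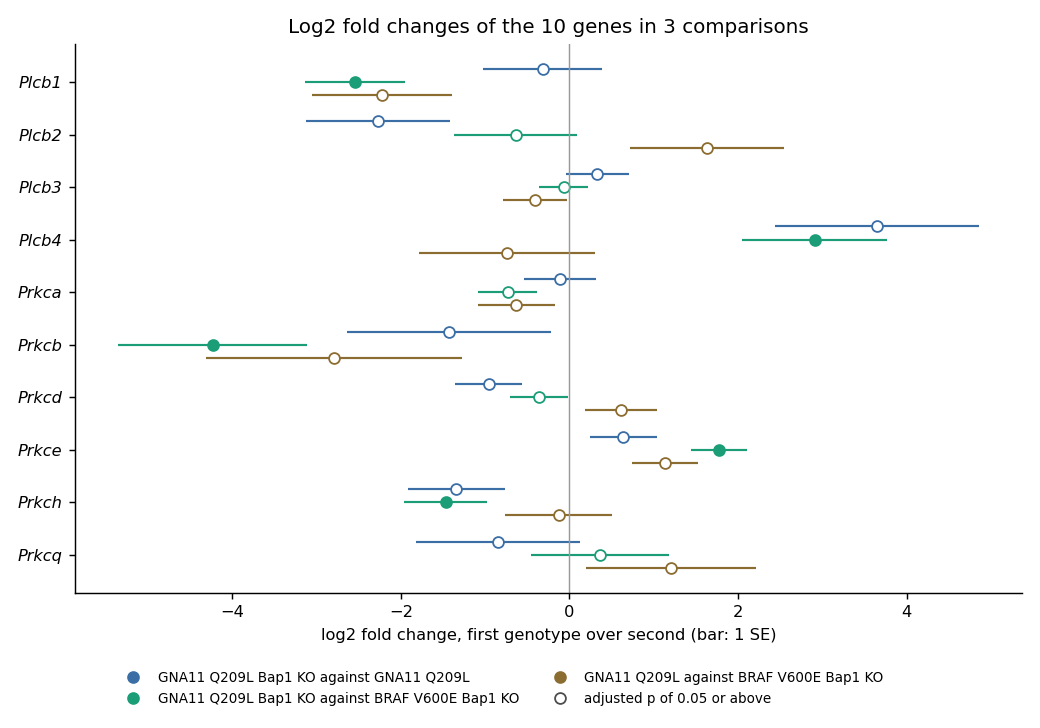
Log2 fold changes of the 10 genes in the 3 comparisons, with bars of 1 SE and filled points at an adjusted p under 0.05 (edgeR). Filled points occur for Plcb1, Plcb4, Prkcb, Prkce and Prkch, all between GNA11 Q209L Bap1 KO tumours and those of BRAF V600E Bap1 KO.

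Some members varied together across the 11 libraries. The Pearson correlation of log2 CPM was 0.80 for Plcb4 and Prkce, 0.83 for Plcb2 and Prkcd, 0.75 for Plcb1 and Prkcb, and -0.78 for Prkcb and Prkce. These are descriptions over libraries that share their genotypes and cell make-up, and no test was made. Among 11373 genes whose mean log2 CPM was 2 or more, the genes most like Prkce were Ppp1r7 (r = 0.986), Fmn2 (0.985) and Dusp3 (0.978). Those most like Plcb4 were Zfp446 (0.965), Srgap2 (0.930) and Ccdc15 (0.930). For Plcb1 they were Ccnh (0.957), Secisbp2 (0.954) and Nr2f2 (0.950), and for Prkcb Lpin2 (0.956), Gdi2 (0.955) and Pgm2l1 (0.954).

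For Plcb2 the nearest genes were Rasa4 (0.965), Csf2rb (0.961) and Ncf4 (0.961), the last of which encodes a part of the phagocyte oxidase. For Prkcd they were Ptpro (0.946), Gadd45g (0.940) and Tyrobp (0.934), the last a signalling adaptor of myeloid and NK cells. Prkch was nearest to Slc16a6 (0.976), Mbp (0.957) and Sema4a (0.953), and Prkcq to Rp9 (0.893), Axin2 (0.885) and Nt5c3 (0.882). Prkca was nearest to Pde7b (0.887), Map3k5 (0.885) and Lrrc8a (0.866), and Plcb3 to Tars (0.950), Usp24 (0.918) and Ttc13 (0.918).

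The other genes of the pathway were taken from 10 lists of 103 genes, of which 100 were tested. Between GNA11 Q209L Bap1 KO tumours and those of BRAF V600E Bap1 KO, 16 were higher and 25 lower, 41% against 41.2% of all genes, with a median log2 fold change of -0.24. Of all genes, 16.5% were higher and 24.7% lower, and the count of each list below is read against these shares. Each list holds few genes, and no list was tested as a set. Upstream of the phospholipases, all 4 Gq family alpha subunit genes passed, 2 higher and 2 lower. Gnaq was higher by 0.63 ± 0.17 (adjusted p = 0.0151, edgeR) and Gna11 by 1.55 ± 0.45 (0.0199), and Gna14 was lower, at -4.43 ± 0.79 (0.00278). The call of Gna11 was lost without BRAF V600E Bap1 KO replicate 2 (adjusted p = 0.0503) or 4 (0.0512), and those of Gna11 and Gnaq without the libraries that read NA for Bap1 (0.169 and 0.108), where Gna14 stood at -3.05 (0.0251).

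Genes that make the substrate of phospholipase C beta were higher in 5 of 14 cases and lower in 0, against 16.5 and 24.7% of all genes. Cds2, which makes CDP-diacylglycerol, stood at 548 ± 70.1 CPM (n = 5) against 101 ± 17.995 (n = 4; log2 fold change 2.45 ± 0.24, adjusted p = 1.88e-04, edgeR). Pi4ka, a phosphatidylinositol 4-kinase, stood at 258 ± 33.2 against 63.6 ± 19.7 CPM (adjusted p = 7.32e-04), and Cdipt, the phosphatidylinositol synthase, at 210 ± 71.5 against 75.2 ± 17.6 (adjusted p = 0.00501, and 0.0574 without the libraries that read NA for Bap1). Of 10 other phospholipase C genes, 0 were higher and 3 lower. Plce1, activated by Ras family proteins, had 0.831 ± 0.218 against 25.4 ± 14.5 CPM, and Plcd3 4.94 ± 2.17 against 33.1 ± 10.6. Plch2 had a log2 fold change of -3.37 ± 1.00, and limma voom gave -1.72 (adjusted p = 0.323). Its call was also lost without BRAF V600E Bap1 KO replicate 4 (-2.42, adjusted p = 0.0683), without replicate 2 or 3 of GNA11 Q209L Bap1 KO (0.0538 and 0.0524), and without the libraries that read NA for Bap1 (-2.77, 0.0758).

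On the IP3 side, 2 of 10 genes were higher and 1 lower, against 16.5 and 24.7% of all genes. Itpkb, a kinase of IP3, had 798 ± 299 CPM against 69.7 ± 55.4 (log2 fold change 3.52 ± 0.60), and Inpp5a, a phosphatase of IP3, 350 ± 108 against 50.1 ± 14.0 (2.80 ± 0.40). Itpkc, another IP3 kinase, was lower at 15.8 ± 4.23 against 34.7 ± 7.95 CPM (-1.14 ± 0.28), with an adjusted p of 0.0713 without the libraries that read NA for Bap1. In the list of calcineurin, NFAT and CaM kinase II, 1 of 14 was higher and 2 lower. The higher gene was Nfatc2, a calcium-dependent transcription factor, with 503 ± 224 CPM against 38.5 ± 18.02, and Rcan1, a calcineurin regulator, was lower, at -1.21 ± 0.28. Camk2a had -3.46 ± 0.94, and was not called without BRAF V600E Bap1 KO replicate 4 (-1.64, adjusted p = 0.0712) or without the libraries that read NA for Bap1 (-1.83, 0.0926). By limma voom it was -2.59 (0.0475).

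Among other proteins that bind diacylglycerol, 1 of 10 was higher and 6 lower, against 16.5 and 24.7% of all genes. Rasgrp3, the Ras exchange factor that is a substrate of protein kinase C, had 643 ± 271 CPM against 8.03 ± 5.58 (6.33 ± 0.60). Rasgrp1, the exchange factor of T cells, had 0.469 ± 0.134 against 11.9 ± 5.55 CPM, and Chn1, a Rac GTPase-activating protein, 3.20 ± 1.22 against 22.8 ± 22.6. The log2 fold change of Chn1 was -2.83 ± 0.58, and -1.86 without BRAF V600E Bap1 KO replicate 1. Of 9 diacylglycerol kinases, which remove the lipid, 1 was higher and 3 lower. Dgka had -2.23 ± 0.60 (adjusted p = 0.0146, and 0.0712 by limma voom), Dgki -2.28 ± 0.75 (0.0326) and Dgkh 1.13 ± 0.37 (0.0333). The calls of Dgki and Dgkh were each lost without any of several single libraries, with -0.98 for Dgki without BRAF V600E Bap1 KO replicate 4. Without the libraries that read NA for Bap1, Dgki gave -1.25 (0.160) and Dgkh 1.30 (0.0920), and limma voom gave -1.58 (0.110) for Dgki.

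Of 9 other kinases of the PKC and PKD families, 2 were higher and 2 lower, and the lower genes were Prkd3 at -1.27 ± 0.32 and Pkn3 at -1.76 ± 0.47. Of 17 substrates and anchors of protein kinase C, 2 were higher and 6 lower, against 16.5 and 24.7% of all genes. The syndecan Sdc4 (-2.72 ± 0.29), the growth cone protein Gap43 (-6.18 ± 0.78) and Sdpr (-2.62 ± 0.58), a caveolar protein that binds protein kinase C, were among the lower. Without the libraries that read NA for Bap1, Sdpr stood at -2.0 (adjusted p = 0.0498).

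**Figure D5:**
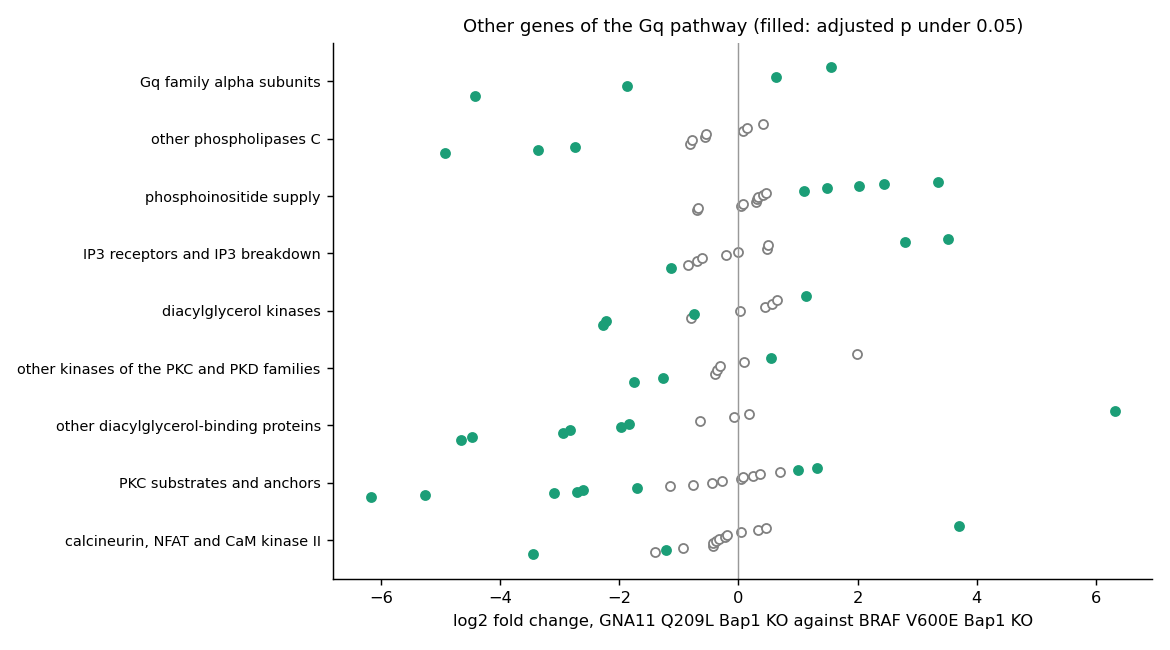
Log2 fold change between GNA11 Q209L Bap1 KO tumours and those of BRAF V600E Bap1 KO of 96 of the tested pathway genes, in 9 lists, with filled points at an adjusted p under 0.05 (edgeR). The phosphoinositide supply list has filled points only on the higher side (5 of 14), and Rasgrp3 lies farthest to the right, at 6.33. Of all genes tested, 16.5% were higher and 24.7% lower.

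Between the GNA11 genotypes, 0 of the 100 pathway genes passed by edgeR, with a median log2 fold change of -0.05. Rasgrp3 stood at 643 ± 271 against 168 ± 52.6 CPM, a log2 fold change of 1.93 ± 0.64 (adjusted p = 0.309, edgeR, and 0.0377 by DESeq2). Chn2, another diacylglycerol-binding protein, stood at 1.72 ± 0.438 against 9.80 ± 1.79 CPM (-2.50 ± 0.76, adjusted p = 0.272, and 0.0426 with the 2 genotypes fitted alone). Plek, a protein kinase C substrate of blood cells, stood at 50.5 ± 24.3 against 156 ± 134 CPM (-1.62 ± 0.62, adjusted p = 0.362). Akap12, an anchor of protein kinase C, stood at 157 ± 68.1 against 34.99 ± 1.49 (2.16 ± 1.05, adjusted p = 0.478). Between GNA11 Q209L and BRAF V600E Bap1 KO, 9 pathway genes were higher and 7 lower, 16% against 15.2% of all genes.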

How the data were processed

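The authors deposited 1 table of expected counts per gene, that is estimated counts, not normalised, for the 11 libraries. STAR and the build mm9 are named per the submitters' processing notes, while the counting program, the annotation, use of strand and versions were not given in the sources used here. Of 18769 lines with an ID, 7 repeats were dropped and 6 transgene sequences were kept apart. All values were whole numbers, so rounding changed none. Counts were tested with edgeR 4.0.16 (R 4.3.3; quasi-likelihood, TMM scaling, default filter by group, 17350 genes), with genotype as the only term and all 11 libraries in 1 fit. Two-sided p-values were adjusted by Benjamini-Hochberg over all genes tested. A standard error is the log2 fold change over the root of its F statistic. The common dispersion was 0.419 and the prior degrees of freedom 2.82. Per total count, before TMM scaling, 3 counts equal 0.03702 to 0.1636 CPM. The edgeR script was tested on simulated counts.

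Genes named are the 10 members, up to 3 genes of each pathway list with the smallest p in the 2 comparisons with GNA11 Q209L Bap1 KO, the 3 genes most correlated with each member, and label checks. Members and lists were chosen with earlier results of these data known. Alternatives were DESeq2 1.42.0, voom of limma 3.58.1, RLE factors, no filter, the 2 genotypes alone, an Xist covariate, each library left out, and 2 GNA11 Q209L Bap1 KO libraries summed (replicates 1 and 2, whose titles share an identifier). Leaving out the libraries that read NA for Bap1 was added after seeing the data. The labels do not say that libraries come from separate animals, so p-values measure the spread between these samples. No 2 libraries of the same genotype agreed within sampling noise, and pairs across genotypes were not checked. Promoter windows come from RefSeq on GRCm38.p6, a later build than that of the counts, and were matched by symbol. A small number of pathway genes are not reported here.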

Additional observations from a re-analysis of the deposited data

Results flagged for a closer look

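In 12 of 120 groups of 4 or 5 libraries, over 60 pathway genes and members, 1 library lay farther from the rest than Dixon's criterion allows, and 0 of the 12 concerned a member. For independent, normally distributed values the criterion flags about 1 in 20 groups. The values here were CPM without a log, and groups share libraries, so the 12 flags cannot be read against that rate. BRAF V600E Bap1 KO replicate 1 accounted for 6. It had 188 CPM of Gna11 (others 73.9 to 88.5), 113 of Pi4k2a (61.6 to 67.1), 101 of Cdipt (63.6 to 69.1), 111 of Pdpk1 (73.7 to 74.8) and 56.5 of Chn1 (9.19 to 15.6), and a low 0.135 of Itpka (0.787 to 0.905). Replicate 4 of that genotype had 4.42 CPM of Dgki (0.375 to 0.820) and 22.4 of Camk2a (1.36 to 2.61). Replicate 2 had 93.5 of Sdpr (30.3 to 39.7) and replicate 3 had 123 of Arhgef25 (73.01 to 76.8). In GNA11 Q209L Bap1 KO, replicate 5 had 8.73 CPM of Plcd3 (3.68 to 4.81) and replicate 1 had 1.36 of Gap43 (0.216 to 0.428).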

How the results depend on the processing

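Prkce and Plcb1 kept their calls between the Bap1 KO genotypes under all 19 alternatives. The cause of the changes below was not tested, except that fits without a library hold fewer samples. Between the Bap1 KO genotypes limma voom called 3 of the 10 members, against 35.2% of all genes. Leaving out each Bap1 KO library called 4 to 5 members, against 31.4 to 41.8%. Between the GNA11 genotypes, DESeq2 called 1 member, against 2.53% of all genes. Leaving out each Bap1 KO library called 0 there, against 0 to 0.0757%. Between GNA11 Q209L and BRAF V600E Bap1 KO, DESeq2 called 2 members, against 31.3% of all genes, and limma voom 1, against 14.98%. Leaving out each Bap1 KO library called 0 to 1 there, against 10.2 to 16.7%.

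Genes called between the GNA11 genotypes numbered 5, and 3 with RLE factors, 3 with no filter, 439 with DESeq2, 64 with the 2 genotypes alone, 0 with the shared-identifier libraries summed, 0 with the Xist covariate, and 0 to 13 with each library left out. Between GNA11 Q209L and BRAF V600E Bap1 KO they numbered 2637, and 5423 with DESeq2, 417 with the 2 genotypes alone, 1192 with the Xist covariate, 838 without the libraries that read NA for Bap1, and 265 to 2867 with each library left out. Between the oncogenes in Bap1 KO tumours they numbered 7146, and 3571 without the libraries that read NA for Bap1.

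Reversed log2 fold changes concerned members that were not called. Between the oncogenes in Bap1 KO tumours, Plcb3 (main -0.07) gave 0.05 by voom, 0.01 with libraries summed, 0.04 with the Xist covariate, and -0.30 to 0.23 with each library left out (0.00 without GNA11 Q209L Bap1 KO replicate 5). Prkcq gave -0.33 without GNA11 Q209L Bap1 KO replicate 4 and -0.03 without BRAF V600E Bap1 KO replicate 1, in a range up to 1.09. Between the GNA11 genotypes, leaving out GNA11 Q209L replicate 1 gave 0.32 for Prkcd, 1.58 for Plcb1 and 0.69 for Prkcb, the upper ends of ranges that began at -1.57, -1.06 and -2.19. Plcb1 gave 0.12 with the Xist covariate, and Prkca 0.04 and 0.00 without GNA11 Q209L Bap1 KO replicates 3 and 5. Between GNA11 Q209L and BRAF V600E Bap1 KO, Prkch gave 0.02 by voom, 0.02 with the Xist covariate, 0.54 without GNA11 Q209L replicate 2, 0.42 without BRAF V600E Bap1 KO replicate 4 and 0.50 without the libraries that read NA, with -1.37 as the lowest on leaving out a library. Plcb4 gave 0.45 by voom, 0.72 without BRAF V600E Bap1 KO replicate 4 and 0.71 without the libraries that read NA, with -1.28 as its lowest. Without GNA11 Q209L replicate 1 Prkcd gave -0.67 and Plcb2 -0.53, in ranges up to 1.28 and 2.45. Without that library Plcb1 was called (-4.12, adjusted p = 0.0499), and Prkce was called without BRAF V600E Bap1 KO replicate 4 (1.38, adjusted p = 0.0445). Medians of all genes stood near -0.26, -0.23 and -0.00 and members are read against them.

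No paired analysis was possible because the labels give no replicate numbers shared between the genotypes. With 2 GNA11 Q209L libraries, comparisons with that genotype have little precision, and where 1 of them is left out the other is assumed to vary like the other genotypes.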
